A study of Mus musculus with 32 samples.

Results

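The glucocorticoid receptor gene Nr3c1, 6 genes that the receptor is known to induce (Fkbp5, Tsc22d3, Sgk1, Zbtb16, Per1 and Klf9) and the genes of 2 enzymes that set the supply of its hormone inside cells (Hsd11b1 and Hsd11b2) were followed in the developing mouse brain. These 9 genes were taken by symbol from the 55291 symbols of the count tables, and all 9 were found. They were chosen because oxysterols made from 7-dehydrocholesterol are reported to act on this receptor. The question was how the genes' transcripts develop in wild-type brain, and whether they differ when 7-dehydrocholesterol reductase is lost.

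Polyadenylated RNA of whole brains was sequenced in 32 libraries from C57BL/6J mice. WT animals were Dhcr7+/+ and KO animals were Dhcr7-/-, a model of Smith-Lemli-Opitz syndrome in which the enzyme that turns 7-dehydrocholesterol into cholesterol is missing. Each genotype was sampled at 3 embryonic ages named by their day of gestation, E12.5, then E14.5, then E16.5, and on the day of birth (PND0, postnatal day 0), with 4 libraries in each of the 8 groups. Values given in stage order follow that sequence. The labels name neither the litter, the sex nor the hour of collection, nor whether the knockout is of 1 line, and they do not say that replicates came from separate animals, so p-values measure the spread between these samples. The KO lacks the enzyme in the whole animal, per the genotype label, and a whole brain holds many cell types: fewer cells of a type and less RNA per cell cannot be told apart.

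Glucocorticoids such as corticosterone, the main glucocorticoid of mice, enter cells and bind the receptor, which is held in the cytoplasm by a chaperone complex built on Hsp90. The bound receptor moves to the nucleus, binds palindromic elements in DNA and raises the transcription of genes that include Fkbp5 and Tsc22d3. Hsd11b2 encodes the dehydrogenase that inactivates corticosterone and shields the fetal brain from maternal hormone, while Hsd11b1 encodes the enzyme that regenerates active hormone. Several targets answer to other signals as well: Per1 and Klf9 are tied to the circadian clock, and Sgk1 also to the mineralocorticoid receptor.

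Promoter sequence was available in a RefSeq table (build GRCm38.p6) for 6 of the 9 genes, with 14 windows of 250 bases before to 50 bases after an annotated start. The windows are shown to place receptor and clock motifs beside the genes whose levels are described below. The search covered 4 motifs on both strands: the palindromic receptor element (AGAACA, any 3 bases, then TGTTCT), its single arm AGAACA, which also lies within the palindrome, the clock E-box CACGTG and the cyclic AMP element TGACGTCA. Capitals mark the matches. Sgk1 (chr10:21993640-21993939, plus strand) held the palindromic element, with its first base at position -189 from the start, and an E-box at -246 that overlaps a separate single arm outside the palindrome. Per1 (chr11:69098699-69098998, plus strand) and Fkbp5 (chr17:28486100-28486399, minus strand) each held 1 E-box, at -166 and -169. Tsc22d3 (chrX:140600473-140600772, minus strand) held a single arm at -185, and Klf9 (chr19:23140976-23141275, plus strand) held none of the motifs.
Sgk1: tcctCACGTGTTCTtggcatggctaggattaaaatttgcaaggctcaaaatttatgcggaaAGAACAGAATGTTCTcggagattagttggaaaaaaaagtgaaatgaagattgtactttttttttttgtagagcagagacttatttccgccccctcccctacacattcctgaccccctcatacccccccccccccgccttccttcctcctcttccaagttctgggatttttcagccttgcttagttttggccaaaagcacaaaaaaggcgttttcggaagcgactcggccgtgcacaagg
Per1: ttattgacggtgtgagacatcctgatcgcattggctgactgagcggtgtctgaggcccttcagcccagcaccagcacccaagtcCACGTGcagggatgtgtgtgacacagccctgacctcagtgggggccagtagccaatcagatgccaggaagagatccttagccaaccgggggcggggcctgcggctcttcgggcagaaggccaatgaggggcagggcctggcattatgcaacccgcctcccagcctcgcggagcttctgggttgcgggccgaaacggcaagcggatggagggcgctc
Fkbp5: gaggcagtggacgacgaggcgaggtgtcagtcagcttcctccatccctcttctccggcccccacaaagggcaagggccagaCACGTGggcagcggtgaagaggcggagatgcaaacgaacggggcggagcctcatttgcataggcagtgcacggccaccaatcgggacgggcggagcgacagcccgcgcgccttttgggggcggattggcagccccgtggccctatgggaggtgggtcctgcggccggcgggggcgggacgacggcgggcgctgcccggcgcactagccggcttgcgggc
Tsc22d3: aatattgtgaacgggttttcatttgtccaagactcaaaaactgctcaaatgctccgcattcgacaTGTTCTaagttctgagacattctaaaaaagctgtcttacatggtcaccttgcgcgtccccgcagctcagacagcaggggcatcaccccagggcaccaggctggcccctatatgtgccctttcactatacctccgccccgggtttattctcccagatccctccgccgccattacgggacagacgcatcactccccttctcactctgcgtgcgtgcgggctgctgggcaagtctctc
Klf9: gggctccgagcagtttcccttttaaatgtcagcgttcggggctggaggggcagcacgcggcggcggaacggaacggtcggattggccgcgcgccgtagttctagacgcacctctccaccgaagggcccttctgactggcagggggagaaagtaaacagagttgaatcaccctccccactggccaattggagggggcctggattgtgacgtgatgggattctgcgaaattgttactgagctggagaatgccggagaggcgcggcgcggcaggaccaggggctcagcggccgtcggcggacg
Of all 32851 windows of that length in the table, 0.00913% held the palindromic element, which is 3 windows. The single arm occurred in 19% of them, the E-box in 7.15% and the cyclic AMP element in 1.79%. Among the 14 windows of these genes the single arm was found in 4, the E-box in 3 and the cyclic AMP element in 0. A match describes the letters of the window, and no binding was measured here. The Hsd11b1 window and the other windows of Per1, Sgk1 and Tsc22d3 are not printed.

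Libraries held between 13.87 and 28.32 M counts. Levels are given as CPM, which is counts per 1 M counts of the library, on 1 scale over the 32 libraries (TMM, the trimmed mean of M-values). Dhcr7, the deleted gene, was lower in every KO library than in every WT library of its stage, with mean KO levels of 13.1 to 21.9 CPM against 62.4 to 90.9 CPM in WT. The library labelled E12.5 KO replicate 1 stood apart, with 5.64% of its counts on CT010467.1, a ribosomal RNA gene, against 0.191% to 3.75% in the other 31. Neuron markers (Tubb3, Map2, Stmn2, Dcx, Snap25) summed to between 2257 and 5862 CPM, so all libraries held the labelled tissue. At PND0 the summed choroid plexus markers (Ttr, Folr1, Kl, Clic6, Kcne2, Prlr) were higher in every KO library (607.6 to 963 CPM) than in any WT library (303 to 607.5 CPM), by a narrow margin. Most of that sum at PND0 was Ttr (572 to 917 CPM in KO, 281 to 570 CPM in WT). Kcne2 was also higher in every KO library, while Folr1, Kl, Clic6 and Prlr overlapped at that stage. The hindbrain and spinal cord markers were lower in every KO library there (0.24 to 0.594 CPM, against 1.56 to 7.05 CPM). Red blood cell genes ran from 234 to 2295 CPM in KO, highest in replicate 3, and from 200.2 to 267.5 CPM in WT at PND0. Most of that hindbrain and spinal cord sum was Slc6a5 (1.27 to 5.79 CPM in WT, 0.24 to 0.528 CPM in KO). Hoxb4, Hoxb8 and Hoxc6 of that list were at 0 in every PND0 library. None of the 6, 7 and 6 genes of these 3 lists was at 0 in all 32 libraries. At PND0, 6, 1 and 6 of them had enough counts to be tested, and 0, 1 (Slc6a5) and 0 passed. The part of these differences in the results below was not tested.

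None of the 9 genes passed the threshold in any comparison of KO with WT. The threshold was an adjusted p of 0.05 in edgeR's quasi-likelihood F test with Benjamini-Hochberg adjustment over all genes tested in a comparison. Among all genes tested 0.0177%, 0.527%, 0.0462% and 1.44% passed in stage order, so 0 of 8, 8, 8 and 9 tested genes is near the background. The KO and WT libraries of these genes overlapped in every comparison, against a background of 2.73%, 4.8%, 6.43% and 11.7% of genes whose libraries did not overlap. At an unadjusted p under 0.05 the count was 1 at E12.5 (Nr3c1) and 0 at the other stages. DESeq2 also called 0 of them at each stage, and the edgeR count stayed at 0 when any single library was left out. Averaged over the 4 stages in a fit of all 32 libraries, 0 of 9 passed (background 0.558%), and 0 had an unadjusted p under 0.05.

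**Figure D1:**
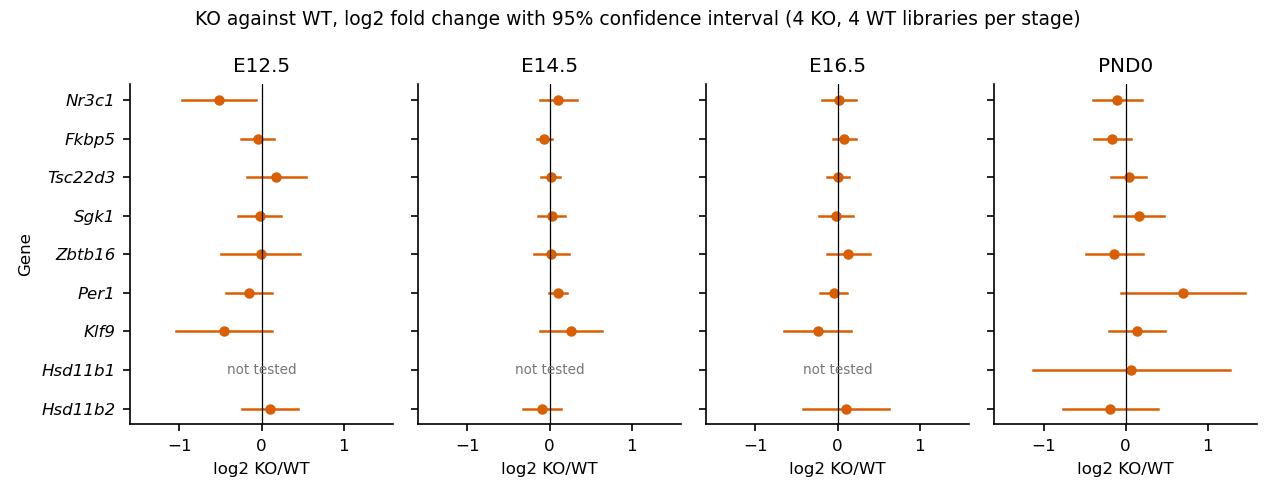
Log2 fold change of KO against WT for the 9 genes at each stage (dots, x axis) with 95% confidence intervals (lines), from 4 KO and 4 WT libraries per stage; Hsd11b1 was too low to be tested before PND0. The interval of Nr3c1 at E12.5 ends below 0 before adjustment, and the interval of Per1 at PND0 runs from -0.05 to 1.45.

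The 95% intervals limit how large a difference could be. At E14.5 the intervals of the 8 tested genes lay between -0.32 and 0.64 on the log2 scale. They were narrowest for Fkbp5, which differed by -4.23% (95% interval -10.2% to 2.17%), and widest for Klf9 (-7.39% to 55.6%). The intervals lay between -1.05 and 0.54 at E12.5, between -0.65 and 0.62 at E16.5, and between -1.13 and 1.45 at PND0. The outer ends come from the genes with the widest spread between libraries and are no limit of detection for the others. For Fkbp5 the average over stages was -2.69% (-8.19% to 3.14%), for Tsc22d3 4.66% (-2.93% to 12.8%) and for Sgk1 3.02% (-5.92% to 12.8%).

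In WT, 4 of 8 tested genes changed in the step from E12.5 to E14.5 (1 higher, 3 lower), 6 in the next step (4 higher, 2 lower) and 5 in the step to PND0 (5 higher, 0 lower). The background was high as well. Of all genes tested 57.8%, 57.5% and 53.2% passed in these steps, with 27.3%, 29.3% and 26% higher and 30.5%, 28.2% and 27.2% lower, so a change with stage was common and not particular to these genes. The libraries of the 2 stages did not overlap for 5, 6 and 4 of the 8 genes, against 53.6%, 53.2% and 48.2% of all genes. Over the whole span from E12.5 to PND0, Klf9, Sgk1, Zbtb16 and Per1 rose and Hsd11b2 fell, while Nr3c1, Fkbp5 and Tsc22d3 did not pass. These 5 of 8 stand beside 70.9% of all genes, of which 34.5% higher and 36.4% lower, and the 5 did not overlap between the stages, as did 65.7% of all genes. The median log2 fold change of the 8 tested genes was 0.48 over that span, against -0.05 over all tested genes.

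**Figure D2:**
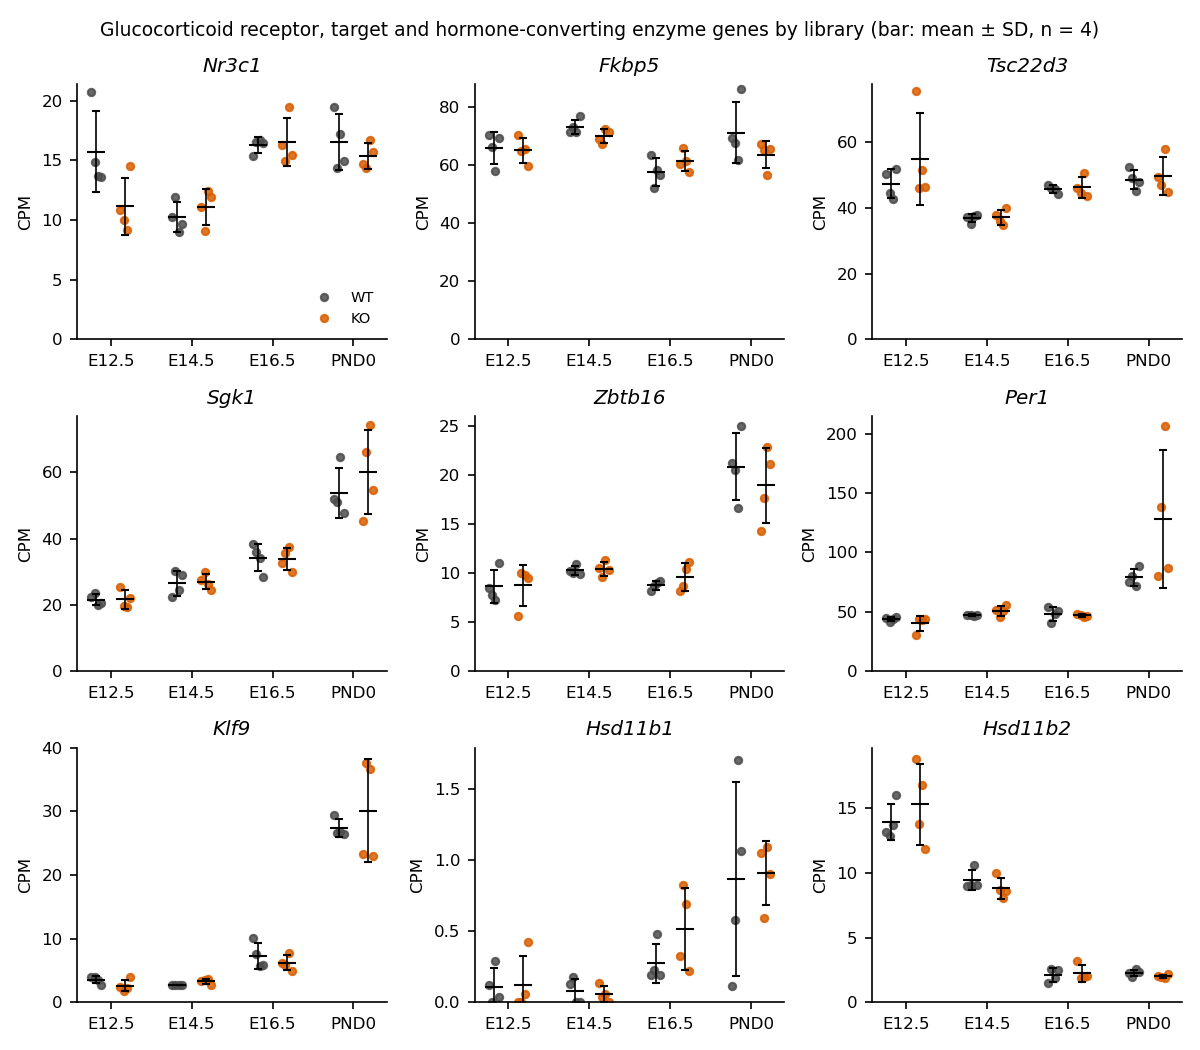
CPM of each gene (y axis, from 0) in each of the 32 libraries by stage (x axis); grey dots are WT, orange dots are KO and bars are the mean ± SD of 4 libraries. Klf9, Sgk1, Zbtb16 and Per1 are highest at PND0, Hsd11b2 is highest at E12.5, and the 4 KO libraries of Per1 at PND0 spread from 80.4 to 206 CPM.

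Nr3c1 (ENSMUSG00000024431.15) is a minus-strand gene of chromosome 18, between 39410545 and 39519421 in GRCm38, the build of all gene positions given here. In WT it measured 20.8, 14.9, 13.7 and 13.6 CPM in the 4 E12.5 libraries and 10.3, 11.97, 9.03 and 9.69 CPM at E14.5. The receptor transcript was thus lower in every E14.5 library than in any at E12.5, and it fell by 0.64 on the log2 scale (SE 0.157, adjusted p 0.00589). At E16.5 it was back at 16.3 ± 0.64 CPM (SD, n = 4), a rise of 0.67 from E14.5 (SE 0.104, adjusted p 4.03e-05), and at PND0 it was 16.53 ± 2.34 CPM. From E16.5 to PND0 the log2 fold change was -0.04 (adjusted p 0.815). The course in WT was therefore a dip at E14.5 between 3 stages of similar mean level. The summed meninges and fibroblast markers, named in the next paragraph, ran from 1434 to 3135 CPM in WT at E12.5. They ran from 629 to 731 CPM at E14.5 and from 466 to 688 CPM at E16.5. The part of these markers in the course of Nr3c1 was not tested.

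The KO libraries of E12.5 measured 10.9, 10.01, 9.20 and 14.6 CPM of Nr3c1. Replicates 1 to 3 were below every WT library of that stage, and replicate 4 lay within the WT range. The log2 fold change was -0.52 (SE 0.199, 95% interval -0.97 to -0.07), with an unadjusted p of 0.0273 and an adjusted p of 0.875. It was -0.35 without WT replicate 1, the highest WT library, and -0.69 without KO replicate 4. In KO the mean level was 11.2 ± 2.37 CPM at E12.5 and 11.1 ± 1.49 CPM at E14.5, where WT went from 15.7 ± 3.40 to 10.2 ± 1.26 CPM. The test of whether the KO difference varied over the 4 stages, an interaction in the fit of all libraries, gave p 0.0271 and adjusted p 0.317 for Nr3c1, where 0.0256% of all genes passed. At the later stages KO and WT means were close, at 16.54 and 16.3 CPM at E16.5 and 15.4 and 16.53 CPM at PND0. At E12.5 the summed markers of meninges and fibroblasts (Col1a1, Col1a2, Col3a1, Dcn, Lum, Foxc1) ran from 1434 to 3135 CPM in WT and from 677 to 2728 CPM in KO. They were highest in WT replicate 1 and KO replicate 4, which were also the highest libraries of their groups for Nr3c1. The part of these markers in the Nr3c1 values was not tested.

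Fkbp5 (ENSMUSG00000024222.17, chromosome 17, 28399094 to 28517527, minus strand) encodes a co-chaperone that lowers the receptor's affinity for hormone and closes a feedback loop. It was the gene of the set with the highest level per transcript length at E12.5, E14.5 and PND0 in WT. Its WT means were 65.9 ± 5.55, 73.05 ± 2.52, 57.6 ± 4.73 and 71.1 ± 10.4 CPM in stage order. It fell from E14.5 to E16.5 by 0.34 on the log2 scale (SE 0.0618, adjusted p 0.000206), with every E16.5 library below every E14.5 library. The rise from E16.5 to PND0 was 0.25 with an adjusted p of 0.0499, on the edge of the threshold: the groups overlapped, DESeq2 gave an adjusted p of 0.0541, and leaving out WT libraries one at a time took it as far as 0.159. KO means were 65.0, 70.0, 61.3 and 63.5 CPM, and log2 fold changes against WT ran from -0.16 to 0.08.

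Tsc22d3 (ENSMUSG00000031431.13, chromosome X, 140539528 to 140600659, minus strand) encodes GILZ, a leucine zipper protein that carries part of the anti-inflammatory action of glucocorticoids. Its WT course had the same turning point as that of Nr3c1. From 47.4 ± 4.43 CPM at E12.5 it fell by 0.38 on the log2 scale to 37.0 ± 1.17 CPM at E14.5 (SE 0.0739, adjusted p 0.00155). It then rose to 45.8 ± 1.21 CPM at E16.5 (0.32, SE 0.0598, adjusted p 0.000273) and measured 48.6 ± 2.94 CPM at PND0. In both steps the libraries of the stages did not overlap. KO means were 54.8 ± 14.03, 37.2 ± 2.23, 46.3 ± 3.15 and 49.8 ± 5.73 CPM. The wide spread at E12.5 came with 1 library, replicate 1 at 75.6 CPM, where the other 3 measured 46.0, 51.4 and 46.4 CPM. The log2 fold change against WT there was 0.18, and -0.02 without that library.

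Sgk1 (ENSMUSG00000019970.15, chromosome 10, 21882184 to 21999903, plus strand) encodes a kinase that acts on ion channels and transporters. Its WT libraries measured 22.3, 23.7, 19.8 and 20.5 CPM at E12.5 and 51.9, 50.9, 64.6 and 47.6 CPM at PND0. It rose in each step, by 0.28, 0.37 and 0.59 on the log2 scale (adjusted p 0.0462, 0.00897 and 0.000476), and 2.49-fold over the whole span (95% interval 2.09 to 2.96). The first step lost its call when any of 4 single libraries was left out (adjusted p up to 0.127). Sgk1 was the gene whose window held the palindromic receptor element. KO means of 21.6, 27.0, 33.9 and 60.1 CPM lay near those of WT at 21.6, 26.5, 34.2 and 53.7 CPM. At PND0 the KO libraries measured 45.3, 66.0, 74.3 and 54.8 CPM, with replicates 2 and 3 above every WT library, and the log2 fold change was 0.16 (adjusted p 0.597).

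Klf9 (ENSMUSG00000033863.2, chromosome 19, 23141226 to 23168134, plus strand) encodes a Krüppel-like transcription factor that both glucocorticoids and thyroid hormone induce in neural cells. Its change from E12.5 to PND0 was the largest of the 8 tested genes on the log2 scale. The WT libraries measured 3.998, 4.05, 3.46 and 2.79 CPM at E12.5. They measured 2.74, 2.73, 2.68 and 2.81 CPM at E14.5, a narrow band in which the step from E12.5 did not pass (adjusted p 0.0648). They measured 10.1, 7.54, 5.74 and 5.95 CPM at E16.5 and 29.4, 26.6, 26.8 and 26.4 CPM at PND0. The last 2 steps were rises of 1.42 (SE 0.182, adjusted p 5.83e-06) and 1.84 (SE 0.159, adjusted p 5.42e-07), without overlap between stages, and the rise from E12.5 to PND0 was 7.68-fold (6.16 to 9.57). In KO the means were 2.62, 3.29, 6.22 and 30.1 CPM. At PND0 KO replicates 2 and 3 measured 37.6 and 36.6 CPM, above every WT library, and the other 2 measured 23.2 and 23.0 CPM, below every WT library, so the mean difference of 0.14 had a wide interval (-0.20 to 0.49). At E12.5, where counts per library were 28 to 78, the log2 fold change was -0.46 (95% interval -1.05 to 0.13, adjusted p 0.875).

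Zbtb16 (ENSMUSG00000066687.5, chromosome 9, 48654297 to 48836222, minus strand) encodes the zinc finger repressor PLZF, which is also active in neural progenitors. Its WT means before birth were 8.62 ± 1.69, 10.25 ± 0.465 and 8.72 ± 0.46 CPM, and neither step between them passed (adjusted p 0.184 and 0.0776), although every E16.5 library was below every E14.5 library. At PND0 the libraries measured 21.2, 20.5, 16.7 and 25.0 CPM, all above every earlier WT library. That rise was 2.30-fold (95% interval 1.88 to 2.81, adjusted p 5.77e-06). KO libraries at PND0 measured 14.2, 17.6, 22.8 and 21.1 CPM and overlapped WT (log2 fold change -0.14, adjusted p 0.71). The KO means before birth were 8.72, 10.4 and 9.59 CPM. At E12.5 KO replicate 1 was the lowest library at 5.63 CPM, where the other 3 lay between 9.49 and 9.94 CPM.

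Per1 (ENSMUSG00000020893.17, chromosome 11, 69095217 to 69109960, plus strand) encodes a repressor of the circadian clock that glucocorticoids and neuronal activity both induce. In WT it was steady before birth, with means of 43.7 ± 2.03, 46.9 ± 0.678 and 48.2 ± 5.97 CPM, and rose by 0.66 on the log2 scale to 78.9 ± 7.39 CPM at PND0 (SE 0.0972, adjusted p 5.95e-05). At PND0 it had the largest log2 fold change of the set between KO and WT. The WT libraries measured 75.0, 79.8, 71.9 and 88.8 CPM, and the KO libraries measured 80.4, 138, 206 and 87.1 CPM. Replicates 2 and 3 were far above WT, and replicates 1 and 4 lay inside the WT range. The KO mean was 128 ± 58.1 CPM and the log2 fold change 0.70 (SE 0.316, 95% interval -0.05 to 1.45), with p 0.0638 and adjusted p 0.31. In the fit of all 32 libraries, where the spread is shared by all groups, the same difference passed (0.70, adjusted p 0.0179), as did 1205 genes in all. Without KO replicate 3 it was 0.37 (adjusted p 0.358). That library also held the most red blood cell transcripts at PND0. Its Hbb-bs was 1153 CPM, against 262, 119 and 307 CPM in KO replicates 1, 2 and 4. The part of blood in the Per1 values was not tested. The interaction of KO with stage gave p 0.0103 and adjusted p 0.254 for Per1. Before birth the KO means were 40.1 ± 6.39, 50.6 ± 4.05 and 46.7 ± 1.03 CPM. At E14.5 the KO libraries measured 45.5 to 55.4 CPM against 45.9 to 47.5 CPM in WT (log2 fold change 0.11, p 0.0563, adjusted p 0.584).

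**Figure D3:**
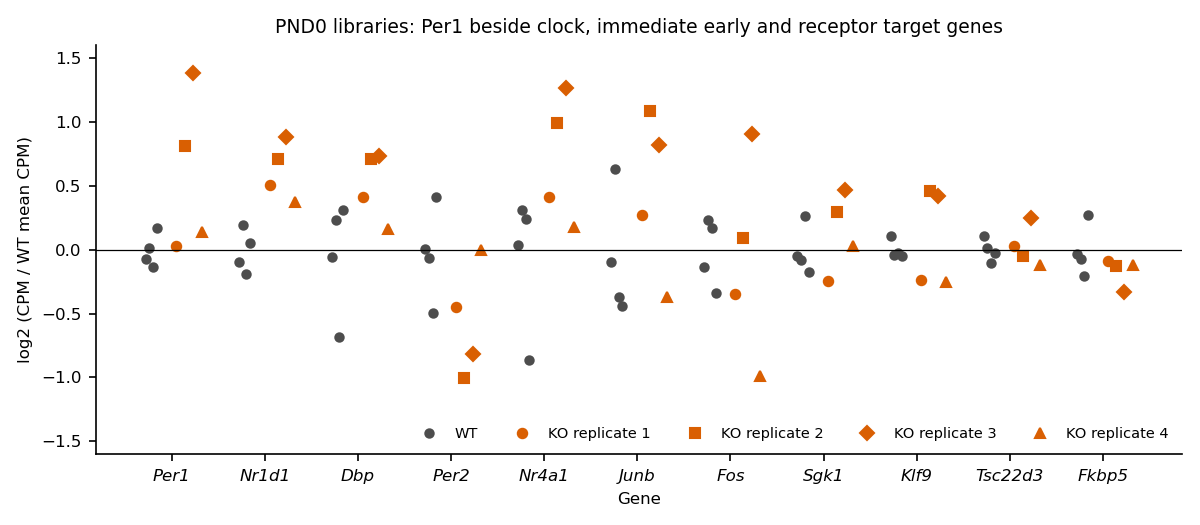
Log2 of each PND0 library's CPM over the WT mean (y axis) for Per1, 3 other clock genes, 3 immediate early genes and 4 receptor targets (x axis), with WT in grey and KO libraries in orange by replicate; these genes were chosen after their values were seen. KO replicates 2 and 3 are the highest KO libraries for Per1, Nr1d1, Nr4a1, Junb, Sgk1 and Klf9, while no such split appears for Fkbp5; Npas4 and Arc, which are not plotted, were lowest in KO replicate 3.

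The 2 KO libraries with high Per1 also differed in other genes. Nr1d1, which encodes a clock repressor, measured 24.3, 27.98, 31.7 and 22.2 CPM in the KO libraries of PND0 and 16.04, 19.6, 15.02 and 17.8 CPM in WT. All 4 KO libraries were above all WT libraries, and Nr1d1 passed the threshold (log2 fold change 0.63, SE 0.14, adjusted p 0.0378). The call was lost when any of 6 single libraries was left out (adjusted p up to 0.142), with transcript length offsets (0.0795) and with the ribosomal RNA covariate (0.708). Per2, the sister gene of Per1, pointed the other way with 21.6, 14.7, 16.8 and 29.4 CPM in KO and a mean of 29.5 ± 7.56 CPM in WT (log2 fold change -0.52, adjusted p 0.26). Nr4a1, an immediate early gene that neuronal activity induces, measured 33.5, 50.1, 60.5 and 28.4 CPM in KO against 13.8 to 31.2 CPM in WT (0.79, adjusted p 0.237). KO replicates 2 and 3 were the highest KO libraries for 6 of the 8 immediate early genes (Fos, Fosb, Junb, Egr1, Nr4a1 and Ier2), but not for the other two. Npas4 measured 21.4, 17.1, 9.41 and 16.1 CPM and Arc 3.85, 5.87, 1.84 and 4.56 CPM in KO, lowest in replicate 3, the library with the highest Per1. Fkbp5, at 67.0, 65.1, 56.6 and 65.4 CPM, showed no such rise in those 2 libraries. Of the other glucocorticoid-induced genes described below, Cebpd, Nfkbia, Map3k6, Dusp1 and Ddit4 were above every WT library in both. Cebpd measured 7.59 and 10.8 CPM there, against 4.11 to 6.85 CPM in WT. Margins were narrow in replicate 2 for Map3k6 and Dusp1. Ddit4 was also above every WT library in KO replicate 1, by a narrow margin (99.98 CPM, against at most 99.8 CPM in WT). Hif3a, Tiparp and Cables1 were instead below every WT library in both, but they did not set these 2 libraries apart. Tiparp (15.9 CPM) and Cables1 (8.49 CPM) were below every WT library in KO replicate 1 as well. Hif3a was below every WT library in all 4 KO libraries and lowest in KO replicate 4 (13.7 CPM). These genes were picked after their values were seen, and the split was not tested.

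Hsd11b2 (ENSMUSG00000031891.6, chromosome 8, 105518755 to 105523988, plus strand) encodes the enzyme that inactivates corticosterone. It was the one tested gene of the set that fell over the whole span. WT libraries measured 13.2, 12.9, 13.7 and 16.02 CPM at E12.5 and 8.98, 9.06, 10.6 and 9.11 CPM at E14.5 (log2 fold change -0.58, SE 0.105, adjusted p 0.000952). At E16.5 they measured 1.496, 2.59, 1.86 and 2.49 CPM, a 4.43-fold lower level than at E14.5 (log2 fold change -2.15, SE 0.169, adjusted p 3.47e-08), and at PND0 they measured 2.001 to 2.55 CPM. The loss thus fell mostly between E14.5 and E16.5, and the E12.5 level was 6.06-fold that of PND0. In KO the means were 15.3 ± 3.11, 8.83 ± 0.818, 2.26 ± 0.646 and 2.02 ± 0.112 CPM, and the log2 fold changes against WT were 0.10, -0.09, 0.10 and -0.19.

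Hsd11b1 (ENSMUSG00000016194.14, chromosome 1, 193221634 to 193264075, minus strand), whose enzyme regenerates active hormone, was near the limit of detection. It had 206 counts over the 32 libraries. The 4 libraries of a group summed to 8, 8, 18 and 62 counts in WT and 8, 5, 33 and 64 counts in KO in stage order. A count of 0, as in 6 libraries before E16.5, allows up to 3 counts, which is 0.127 to 0.216 CPM in these 6 libraries and covers counting error only. At PND0 the WT libraries measured 0.116, 0.581, 1.70 and 1.07 CPM and the KO libraries 1.05, 0.594, 1.09 and 0.899 CPM (log2 fold change 0.07, 95% interval -1.13 to 1.27). Lamb3 overlaps Hsd11b1 on the opposite strand and had 810 counts, and the strand setting of the counting is not given in the sources used here, so the reads of the 2 genes cannot be told apart where they overlap.

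**Figure D4:**
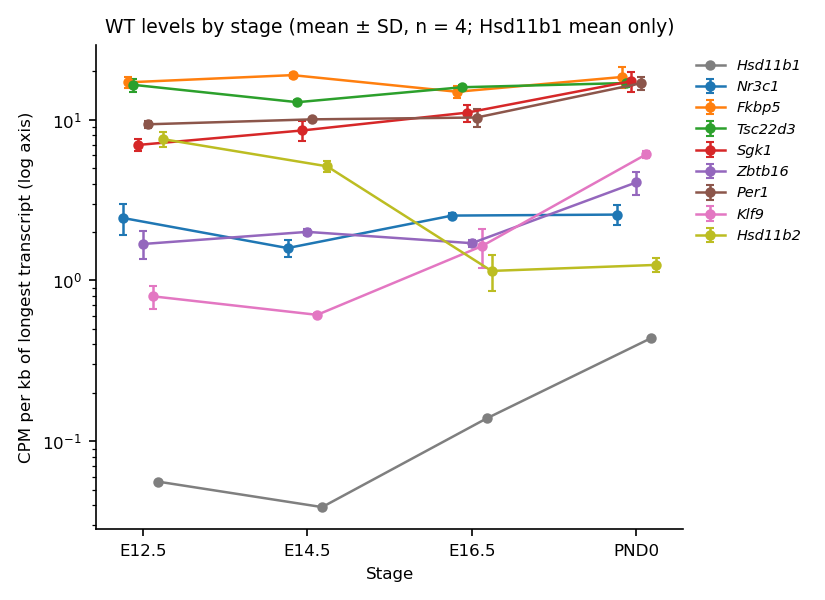
WT level of each gene by stage, as CPM per kb of its longest GENCODE M21 transcript on a log axis (mean ± SD of 4 libraries; Hsd11b1 as the mean only). Fkbp5 and Tsc22d3 lead at E12.5 with 17.1 and 16.49, Sgk1 and Per1 reach their range at PND0, and the lines of Hsd11b2 and Klf9 cross between E14.5 and E16.5.

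Compared per length, the order of the genes in WT changed with stage. At E12.5 Fkbp5 (17.1 ± 1.44 CPM per kb) and Tsc22d3 (16.49 ± 1.54) led and did not differ beyond their spread, ahead of Per1 (9.36 ± 0.436). Hsd11b2 (7.58 ± 0.773) and Sgk1 (6.96 ± 0.572) came next and also lay within their spread of each other. Nr3c1 (2.45 ± 0.529), Zbtb16 (1.685 ± 0.331), Klf9 (0.797 ± 0.131) and Hsd11b1 (0.0561 ± 0.065) closed the order. At E14.5 Fkbp5 was alone at the top (18.9 CPM per kb, against 12.85 for Tsc22d3 and 10.05 for Per1). At E16.5 Tsc22d3 (15.9 ± 0.422) and Fkbp5 (14.9 ± 1.23) lay within their spread of each other, as did Sgk1 (11.1 ± 1.36) and Per1 (10.3 ± 1.28), while Hsd11b2 (1.15) had dropped below Nr3c1 (2.53), Zbtb16 (1.705) and Klf9 (1.63). At PND0 Fkbp5 (18.4 ± 2.70), Sgk1 (17.4 ± 2.40), Tsc22d3 (16.9 ± 1.02) and Per1 (16.9 ± 1.58) lay within their spread of one another. Klf9 had moved from the eighth to the fifth place (6.09 ± 0.314), ahead of Zbtb16 (4.07 ± 0.67) and of the receptor itself (2.57 ± 0.363). The receptor transcript was below Fkbp5, Tsc22d3, Per1 and Sgk1 at each stage.

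Across all 32 libraries, the genes whose log2 CPM was most like that of Nr3c1 were Hipk3, Egfr, Kctd12, Vsir and Lepr, with Pearson r of 0.88, 0.88, 0.87, 0.86 and 0.85. They were ranked among the 16063 genes whose mean reached 1 CPM, and the libraries share stage as a source of likeness. Of the set, Klf9 ranked 640 (r 0.60), Sgk1 1508 (0.50), Tsc22d3 2954 (0.38), Per1 3846 (0.32) and Zbtb16 4538 (0.26). Fkbp5 ranked 12574 with r -0.41 and Hsd11b2 15341 with r -0.63. In WT, Nr3c1 and Hsd11b2 both fell from E12.5 to E14.5, and Nr3c1 rose while Fkbp5 and Hsd11b2 fell from E14.5 to E16.5.

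Within a stage and genotype, 36 pairs of these genes were compared over the 32 libraries by their deviations from the group means. Sgk1 and Klf9 came closest to moving together, with Pearson r 0.61 (permutation p 0.0026, adjusted over the 36 pairs 0.0936) and Spearman rho 0.65 (permutation p 0.00076, adjusted 0.0274), both two-sided. The pair therefore passed by rank and not by Pearson's r, and 0 other pairs passed by either. Within the stages r was 0.50, 0.42, 0.80 and 0.75 in order, over 8 libraries each. It was 0.54 without the 2 libraries farthest from the median of Sgk1, PND0 KO replicates 1 and 3. Nr3c1 and Klf9 had r 0.42 (permutation p 0.0358, adjusted 0.322), which was 0.23 without its 2 farthest libraries.

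**Figure D5:**
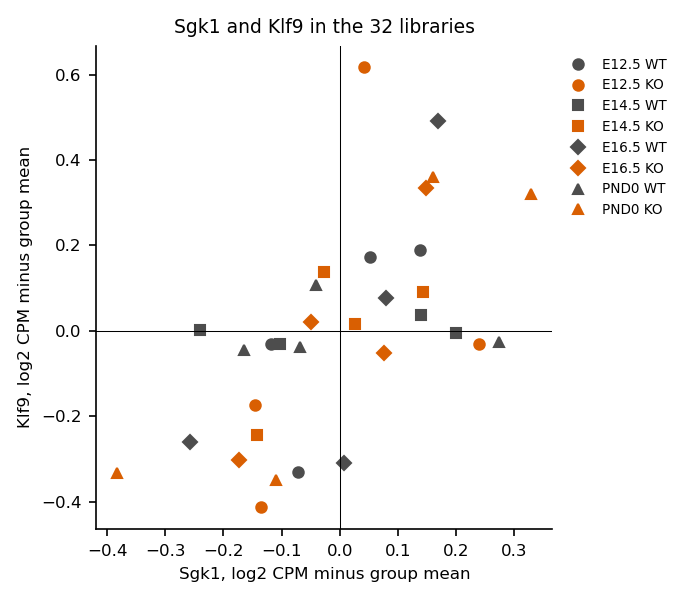
Deviation of Sgk1 (x axis) and Klf9 (y axis) from their group means in log2 CPM, for the 32 libraries, by stage (shape) and genotype (grey WT, orange KO). The libraries run from low in both genes to high in both (Pearson r 0.61), with PND0 KO replicates 2 and 3 at the upper right.

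Around these genes, 91 genes in 7 lists cover the receptor's machinery and its other targets. Of those tested, 2 of 83 passed when KO was compared with WT on the day of birth, 1 of 82 at E14.5, and 0 of 76 and 0 of 81 at the other embryonic stages, beside the same background as above. Of the receptor's coregulators, Ncoa3, a coactivator of nuclear receptors, was 85.4 ± 7.85 CPM in WT and 60.4 ± 4.84 CPM in KO at PND0. It fell by 0.50 on the log2 scale (SE 0.0909, adjusted p 0.0182), with every KO library lower. Its adjusted p was above the threshold without WT replicate 1 or 3 or KO replicate 2 (up to 0.0757), with transcript length offsets (0.0829) and with the ribosomal RNA covariate (0.643). In the coregulator list 2 of 11 genes had a positive difference at PND0 and the median was -0.25, against -0.00058 over all tested genes. At E14.5 Med1, the Mediator subunit that binds nuclear receptors, fell from 92.3 ± 2.83 to 79.5 ± 3.62 CPM (-0.22, SE 0.0444, adjusted p 0.00629), again without overlap. Without KO replicate 1 its adjusted p was 0.0532, and with all 32 libraries fitted together it was 1, so that the call was lost. The coregulators' median was 0.14 at E16.5, with 11 of 11 positive and 0 of 11 past the threshold.

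The other lists held 1 gene past the threshold in KO, Nr1d1 among the 13 clock genes. The 12 chaperones of the receptor complex had 0 calls at each stage and medians of 0.07, 0.01, -0.03 and 0.11, and their smallest p was that of Hsp90aa1, the inducible Hsp90, at E14.5 (856 ± 10.96 CPM in WT, 906 ± 18.4 CPM in KO, adjusted p 0.264), which passed with DESeq2 (0.0314). Of 29 other glucocorticoid-induced genes, 24 to 26 were tested at a stage and 0 passed, with medians of -0.04, 0.03, 0.01 and -0.02. Among them Hif3a had the smallest p, with 40.7 ± 10.4 CPM in WT and 21.2 ± 6.62 CPM in KO at PND0 (log2 fold change -0.94, adjusted p 0.0739). It passed with DESeq2 (adjusted p 0.000569), in the fit of all 32 libraries (0.00667) and without the filter. Averaged over the stages, 0 of 27 tested genes of that list passed. An unadjusted p under 0.05 was found there for 8 of the 27, against 2425 of 19541 genes. Of these, Dusp1, Ddit4, Arl4d and Rhob were higher in KO, and Mertk, Fam107a, Hif3a and Klf15 were lower. In the list of steroid supply the smallest p was that of Cyp11a1, the enzyme that starts steroid synthesis from cholesterol, with 1.6 ± 0.321 CPM in WT and 0.744 ± 0.0934 CPM in KO at PND0 (-1.10, adjusted p 0.127). In the hypothalamic-pituitary list it was that of Crhbp, which encodes a protein that binds corticotropin-releasing hormone, with 2.63 ± 0.564 and 1.10 ± 0.544 CPM (-1.26, adjusted p 0.108), which passed without the filter (0.0378). Of the immediate early genes, 0 of 7, 7, 7 and 8 passed, and Ier2 had the smallest p at E14.5 (18.2 ± 0.631 CPM in WT, 15.7 ± 1.52 CPM in KO, adjusted p 0.445). At most 1 gene of a list passed at a stage.

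Over the WT span from E12.5 to PND0, 20 of 26 tested glucocorticoid-induced genes beside the set passed, 16 higher and 4 lower, with a median of 0.72 against a background of 70.9% called and a median of -0.05. All 9 clock genes that passed, of 13, were higher (median 0.80), as were 6 of the 7 immediate early genes that passed (median 1.98). The chaperones went the other way, with 1 higher and 7 lower of 12 and a median of -0.30. Nr3c2, which encodes the mineralocorticoid receptor, the high-affinity receptor for corticosterone in brain, rose by 3.17 on the log2 scale, with 1.38 ± 0.409 CPM at E12.5 and 12.35 ± 2.24 CPM at PND0 (SE 0.242, adjusted p 8.24e-07), and was chosen after its values were seen. Its KO difference averaged over stages was -0.0038 with an adjusted p of 0.998.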

How the data were processed

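The authors deposited 1 table of raw gene counts per stage, whose values are whole numbers per gene and library. The submitters' processing notes list HISAT2, SAMtools, featureCounts and DESeq2 and the build mm10, and the labels' protocols give polyA enrichment and 150 bp paired reads. Versions and the strand setting are not given in the sources used here. From these counts, each comparison was fitted on its 8 libraries with edgeR 4.0.16 in R 4.3.3 (quasi-likelihood F test, robust fit, TMM scaling, genes kept by filterByExpr at a minimum count of 10 and a total of 15). P-values were adjusted by the Benjamini-Hochberg method over all genes tested, with a threshold of 0.05, and the average and interaction tests used all 32 libraries. Replicate numbers were not used as a block. The tables give symbols only, and gene identifiers, positions and transcript lengths were matched by symbol from GENCODE M21 (GRCm38), which placed 53180 symbols by name and 404 through a synonym. Pair correlations used log2 CPM with a prior count of 2, deviations from group means and 100000 shuffles within groups. All 48 pairs of libraries within a group differed by more than sampling noise. The functions were tested on simulated data.

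The 9 genes and the pathway and marker lists were chosen with earlier results of these data known. In the lists, the genes named by rule are those past the threshold and, where none passed, the gene with the smallest p of each list over the 4 stages. The other list genes named were chosen after their values were seen. The alternatives were another size factor, no filter, DESeq2 1.42.0, the replicate block, a ribosomal RNA covariate, transcript length offsets, a fit of all libraries and leaving out each library.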

Additional observations from a re-analysis of the deposited data

Results flagged for a closer look

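In 7 of 72 groups of 4 libraries (9.72%, where chance gives about 5%), 1 library lay farther from the others than the range of its group allows by Dixon's criterion. KO replicate 1 of E12.5 was the lowest library for Zbtb16 at 5.634 CPM and for Per1 at 30.56 CPM, and it is the library with the highest share of ribosomal RNA counts. Klf9 was highest in PND0 WT replicate 1 at 29.42 CPM. Hsd11b2 was highest in E14.5 WT replicate 3 at 10.61 CPM and in E16.5 KO replicate 1 at 3.224 CPM. The other 2 were libraries of Hsd11b1 at few counts, E12.5 KO replicate 4 at 0.4231 CPM (7 counts) and E16.5 WT replicate 3 at 0.4786 CPM (8 counts).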

How the results depend on the processing

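Of 1569 values of the 9 genes under the alternatives, 1471 kept their side of the threshold and, where they had one, their direction. Of the others, 11 lost their call, 8 gained one and 79 changed sign, all of the last among differences that did not pass. The 1569 values include interaction p-values, which have no direction, and the correlation of Sgk1 and Klf9. The count past the threshold at PND0 became 1 (Per1) in the fit of all 32 libraries and stayed at 0 at each stage under the other alternatives. The cause of the changes below was not tested.

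With the ribosomal RNA covariate the log2 fold change of KO against WT was 0.09012 for Zbtb16 at E12.5 and -0.02151 at E14.5. At E16.5 it was -0.02206 for Nr3c1, 0.03761 for Sgk1, 0.001743 for Per1 and -0.005759 for Hsd11b2. At PND0 it was 0.03203 for Fkbp5, -0.06781 for Tsc22d3 and -0.2848 for Hsd11b1, and the average of Zbtb16 was -0.0006793. The covariate brought 1 gene pair past the threshold by Pearson's r. With transcript length offsets, Zbtb16 at E12.5 was 0.007021, Nr3c1 was -0.02177 at E16.5 and 0.03454 at PND0, and Tsc22d3 and Hsd11b1 at PND0 were -0.001718 and -0.02783. In the fit of all 32 libraries Sgk1 and Zbtb16 at E12.5 were 0.003552 and 0.01387. In the fit of all WT libraries Nr3c1 was 0.01594 from E16.5 to PND0, and without the filter Tsc22d3 was -0.03422 from E12.5 to PND0.

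Leaving out 1 library moved the E12.5 difference of Tsc22d3 from -0.02107 to 0.2613, of Sgk1 from -0.1159 to 0.02864, of Zbtb16 from -0.0906 to 0.1384 and of Hsd11b2 from -0.01679 to 0.2043. At E14.5 the ranges were -0.02439 to 0.0394 for Tsc22d3, -0.04939 to 0.09684 for Sgk1 and -0.02378 to 0.0608 for Zbtb16. At E16.5 they were -0.06854 to 0.05799 for Nr3c1, -0.03713 to 0.03425 for Tsc22d3, -0.1006 to 0.03559 for Sgk1, -0.1266 to 0.01291 for Per1 and -0.1305 to 0.2203 for Hsd11b2. At PND0 they were -0.04625 to 0.08772 for Tsc22d3 and -0.2927 to 0.6091 for Hsd11b1. In WT, Per1 ran from -0.02626 to 0.1226 between E14.5 and E16.5. Between E16.5 and PND0 the range was -0.1212 to 0.02691 for Nr3c1, -0.003695 to 0.06381 for Tsc22d3 and -0.05844 to 0.1846 for Hsd11b2. Between E12.5 and PND0 it was -0.02064 to 0.2325 for Nr3c1 and -0.004691 to 0.087 for Tsc22d3. The average over stages ran from -0.01808 to 0.04624 for Zbtb16, -0.3578 to 0.4442 for Hsd11b1 and -0.06883 to 0.0179 for Hsd11b2, and the number of pairs past the threshold from 0 to 2.

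The labels do not say whether replicate numbers pair the samples. Deviations of same-numbered WT and KO libraries correlated between -0.276 and 0.304, which cannot exclude a shared litter or day. With the replicate number as a block, 0 of the 9 genes passed at each stage and Per1 at PND0 was 0.60. Of all genes 6, 131, 5 and 356 passed with the block, against 3, 94, 8 and 250 without it. Over the alternatives, the number of all genes past the threshold ran in stage order between 1 and 52, 4 and 155, 3 and 233, and 2 and 1205. Size factors moved the median of all genes by at most 0.033 on the log2 scale. With 4 libraries a group, low counts limit Hsd11b1 most.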
